A study of Mus musculus with 6 samples.

Results

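The mevalonate arm of cholesterol synthesis was followed at the level of mRNA in cultured mouse cerebellar granule neurons (CGNs) through 8 genes that encode its enzymes: Acat2, Hmgcs1, Mvk, Pmvk, Mvd, Idi1, Fdps and Ggps1. They are 8 of the 55341 gene symbols listed in the count tables, and they were chosen by name after their difference between inhibitor and vehicle cultures had been seen. Because the genes were selected on that difference, their levels and fold changes are given as a description, without a test.

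The comparison held 6 cultures, 3 treated with GSK-126, a small-molecule inhibitor of the histone methyltransferase EZH2 that deposits H3K27me3, and 3 treated with the vehicle DMSO. All 6 were CGNs prepared from the pooled cerebella of CD1-IGS pups of both sexes aged P6 to P8, with cytosine arabinoside added to limit dividing cells. The inhibitor or vehicle was added on DIV3 (days in vitro, as on the labels) and, according to the study's methods, RNA was collected on DIV5. The dose is not given for this addition in the sources used here, and the labels name the cerebellum as the source. The study defines a culture replicate as CGNs from pooled litters. Whether DMSO and GSK-126 libraries of the same replicate number came from the same preparation is not stated.

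The mevalonate arm builds isoprenoid units from acetyl-CoA and joins them into farnesyl diphosphate, the last intermediate shared by sterols, ubiquinone, dolichol and prenyl groups. Its genes, like those of the sterol steps that follow, are classic targets of the SREBP transcription factors, which are released from the endoplasmic reticulum when sterols are scarce. In the brain cholesterol is made locally, because the blood-brain barrier keeps circulating lipoprotein cholesterol out, and both astroglia and neurons carry the enzymes.

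The 6 libraries held 7407189 to 13092763 reads assigned to genes. Mitochondrial transcripts took 1.75% to 2.78% of them, and every pair of libraries differed by more than sampling noise. Libraries that shared a replicate number deviated together from their group means, and fitting the number as a block lowered the biological coefficient of variation from 24.0% to 9.74%. The cultures carried granule neuron transcripts, with the 8 markers summing to 3333 to 5076 CPM (counts scaled to 1000000 reads on genes) in DMSO and to 2725 to 4115 CPM in GSK-126. They also carried astroglial transcripts, with 8 markers summing to 2423 to 7740 CPM in DMSO and to 2394 to 8079 CPM in GSK-126, and vascular or mesenchymal transcripts, with 8 markers summing to 4977 to 7010 CPM in DMSO and to 6321 to 7714 CPM in GSK-126.

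Sequence before the start sites is shown for 4 of the genes because their mRNA levels moved together in 3 cases and not in the fourth. The stretches were taken from RefSeq promoter entries on GRCm38.p6, read 5′ to 3′ on the strand of the gene, and shortened so that none lies in an exon annotated in GENCODE M21. Capitals mark 3 kinds of letters searched on both strands: TCACNCCAC, the letters of the sterol regulatory element; CCAAT, the letters of an NF-Y box, which read ATTGG on the other strand; and GGGCGG, the letters of a GC box, which read CCGCCC on the other strand. Hmgcs1 is shown because it was the most abundant member and the only one of the 7 members in the table with the sterol element letters, Mvk because it had the most CCAAT letters, Mvd as an enzyme of the middle of the arm, and Ggps1 because its level did not follow the others.

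Hmgcs1, chr13:119690101-119690350, plus strand, 250 bases ending at the base before the RefSeq start: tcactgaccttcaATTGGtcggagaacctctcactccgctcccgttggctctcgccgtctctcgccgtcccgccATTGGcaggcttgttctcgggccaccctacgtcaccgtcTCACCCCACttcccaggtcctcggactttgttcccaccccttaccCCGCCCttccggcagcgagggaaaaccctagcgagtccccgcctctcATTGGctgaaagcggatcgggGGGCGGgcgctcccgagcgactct

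Mvk, chr5:114444061-114444268, plus strand, 208 bases ending at the base before the RefSeq start: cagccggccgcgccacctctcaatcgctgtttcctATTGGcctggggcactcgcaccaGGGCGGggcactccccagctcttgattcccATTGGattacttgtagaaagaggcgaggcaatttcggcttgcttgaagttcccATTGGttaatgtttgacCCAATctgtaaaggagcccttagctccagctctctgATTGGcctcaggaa

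Mvd, chr8:122443423-122443672, minus strand, 250 bases ending at the base before the RefSeq start: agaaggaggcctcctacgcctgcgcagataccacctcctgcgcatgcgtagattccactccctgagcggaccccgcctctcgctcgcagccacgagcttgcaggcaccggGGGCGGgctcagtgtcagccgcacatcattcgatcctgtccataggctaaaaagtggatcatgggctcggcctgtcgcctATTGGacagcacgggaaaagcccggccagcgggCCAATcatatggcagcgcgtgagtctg

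Ggps1, chr13:14063490-14063603, minus strand, 114 bases: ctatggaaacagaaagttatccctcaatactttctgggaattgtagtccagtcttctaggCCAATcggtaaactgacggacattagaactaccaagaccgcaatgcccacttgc

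In the 250 bases before the start, TCACNCCAC was present in 1 of the 7 members with an entry and in 1.22% of the 27025 genes of the table. The Hmgcs1 letters TCACCCCAC ended 128 bases before the start. The CCAAT letters were present in 6 of the 7 members, all but Acat2, and in 37.5% of all genes. Mvk held 5 of them, Hmgcs1 and Ggps1 held 3 each, Mvd and Idi1 held 2 each and Pmvk held 1, before the first of its 2 starts. The 250 bases include annotated exons for some genes. Of the 3 in Ggps1 only 1 lies in the stretch shown, and for Idi1 all 250 bases lie in annotated exons. GGGCGG was present in 5 of the 7 members, in Acat2, Hmgcs1, Mvk, Mvd and Idi1, and in 35.4% of all genes, whereas the E-box letters CACGTG, which do not overlap the other motifs, were present in none of the 7 and in 6.86% of all genes. Ggps1 and Pmvk had the CCAAT letters but not the GC box letters. Of 10 enzymes from squalene to cholesterol with an entry, 10 held CCAAT, 10 GGGCGG, 3 CACGTG and 0 TCACNCCAC. Of 9 genes with an entry in the SREBP control list described below, 6 held CCAAT, 8 GGGCGG, 2 CACGTG and 0 TCACNCCAC. The CCAAT and GGGCGG letters were thus not particular to the mevalonate arm. These matches are letters in a window and no factor was measured there. Fdps had no entry.

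The first steps join acetyl-CoA units. Acat2, on chromosome 17 at 12942890 to 12960747 (GRCm38, minus strand), encodes the cytosolic thiolase that makes acetoacetyl-CoA. Its level was 61.3, 64.4 and 59.8 CPM in DMSO replicates 1, 2 and 3, and 102, 133 and 94.7 CPM in the GSK-126 replicates of the same numbers, where CPM are taken over the library size scaled by the TMM method. All 3 inhibitor libraries lay above all 3 vehicle libraries, by 1.78-fold for the means, and the increase was largest in pair 2. The fitted log2 fold change was 0.83 ± 0.15 (SE, n = 3 per group). This value, like every fold change below that carries an SE, is from the edgeR fit without the replicate block.

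Hmgcs1, on chromosome 13 at 119690379 to 119708260 (plus strand), encodes the cytosolic HMG-CoA synthase that adds the next acetyl-CoA. It measured 443, 447 and 402 CPM in DMSO and 759.5, 945 and 827 CPM in GSK-126, so that the groups lay far apart relative to the spread within each. The means were 431 ± 25.0 and 844 ± 93.9 CPM (SD, n = 3), a 1.96-fold difference, and the log2 fold change was 0.97 ± 0.15 (SE). Hmgcs1 alone took 64.7% to 65.0% of the summed CPM of the 8 members in DMSO and 68.1% to 70.1% in GSK-126. These shares are not corrected for exon length.

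The middle steps phosphorylate mevalonate and remove its carboxyl group. Mvk, on chromosome 5 at 114444269 to 114460591 (plus strand), encodes mevalonate kinase. Its level was 38.5, 35.4 and 31.6 CPM in DMSO and 53.0, 64.2 and 46.3 CPM in GSK-126, with no overlap between the groups, a 1.55-fold difference of means and a log2 fold change of 0.63 ± 0.16 (SE). Pmvk, on chromosome 3 at 89454541 to 89469013 (plus strand), encodes phosphomevalonate kinase, the next enzyme. It measured 27.8, 20.0 and 22.3 CPM in DMSO and 30.9, 30.9 and 34.6 CPM in GSK-126. The Pmvk groups did not overlap, but only narrowly, with DMSO replicate 1 the highest of its group. The means differed 1.37-fold, the log2 fold change was 0.46 ± 0.17 (SE), and pair 1 differed by only 0.15 on the log2 scale against 0.62 and 0.63 in pairs 2 and 3.

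Mvd, on chromosome 8 at 122433601 to 122443422 (minus strand), encodes the decarboxylase that yields isopentenyl diphosphate. Its level was 32.8, 30.0 and 31.2 CPM in DMSO, a narrow range, and 54.4, 72.7 and 56.6 CPM in GSK-126. The means differed 1.96-fold, the log2 fold change was 0.97 ± 0.15 (SE), and pair 2 again showed the widest gap, at 1.27 on the log2 scale.

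The last 3 genes interconvert and join the isoprenoid units. Idi1, on chromosome 13 at 8885501 to 8892451 (plus strand), encodes the isomerase that turns isopentenyl diphosphate into dimethylallyl diphosphate. It measured 33.9, 37.1 and 28.2 CPM in DMSO and 72.2, 85.0 and 72.4 CPM in GSK-126. This was the widest separation among the members, 2.31-fold for the means, with a log2 fold change of 1.21 ± 0.15 (SE) and differences of 1.09, 1.19 and 1.36 in pairs 1, 2 and 3.

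Fdps, on chromosome 3 at 89093588 to 89101959 (minus strand), encodes farnesyl diphosphate synthase, which stands at the branch point. Its level was 1.73, 1.40 and 1.48 CPM in DMSO and 3.11, 3.23 and 2.27 CPM in GSK-126. The groups did not overlap, but these values rest on 15 to 41 counts per library, and the log2 fold change of 0.91 had a wide error of 0.35 (SE). Much of the Fdps transcript was hard to count: 81.3% of the bases of its principal transcript lie in exons of Gm43738, an annotated gene on the same strand, and 67.3% of the 150-base windows of that transcript also occur in transcripts of Gm43738, Gm3571 or Gm5873. HTSeq by default sets aside a read that lies in exons of both genes or maps to several places, so the Fdps values describe only the reads that remained.

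Ggps1, on chromosome 13 at 14050659 to 14063488 (minus strand), encodes the synthase that extends farnesyl diphosphate to geranylgeranyl diphosphate, the donor for much protein prenylation. It was the exception. Its level was 42.5, 55.3 and 44.9 CPM in DMSO and 40.3, 50.4 and 45.9 CPM in GSK-126, with groups that overlapped throughout. The fold of means was 0.958, the log2 fold change was -0.06 ± 0.15 (SE), and the pairs differed by -0.07, -0.13 and 0.03 on the log2 scale. Its sign turned when DMSO replicate 2 was left out, to a log2 fold change of 0.06, or when GSK-126 replicate 1 was left out, to 0.03.

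**Figure D1:**
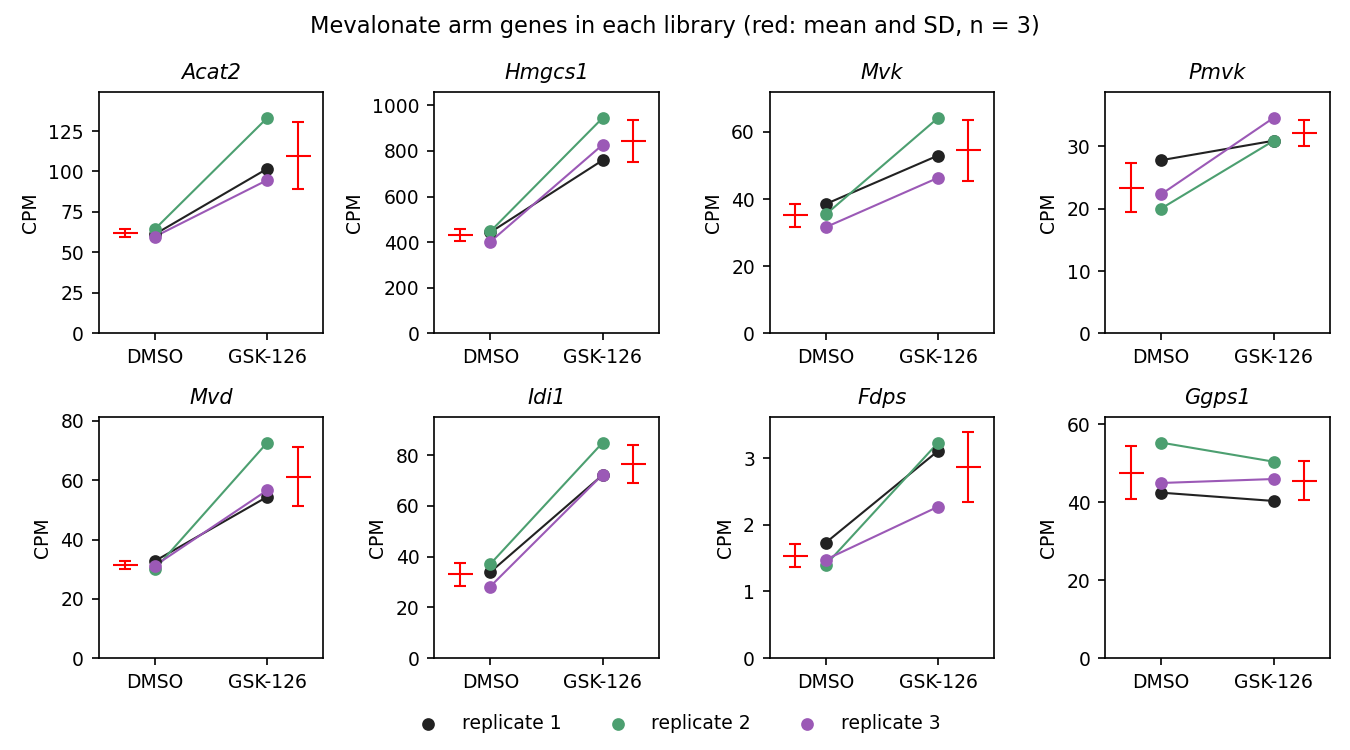
Level of each of the 8 genes in CPM (vertical axis, from 0, with its own scale per gene) in DMSO and GSK-126 cultures (horizontal axis), with lines joining libraries of the same replicate number and red bars giving the mean and SD of 3 libraries. In 7 panels every GSK-126 point lies above every DMSO point, and in the Ggps1 panel the groups overlap.

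Of the 8 members, 7 were thus higher in GSK-126 with no overlap between the groups, where 4.72% of the 16729 genes tested had groups separated in that direction. All 8 members passed the filter on low counts. The median log2 fold change was 0.87 over the 8 members and -0.01 over all genes tested. Summed over the members, the level was 622 to 691 CPM in DMSO and 1115 to 1385 CPM in GSK-126. These counts describe the difference on which the genes were selected, and nothing more is read from them.

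The call of single genes depended on whether the replicate number was fitted. Without it, the edgeR quasi-likelihood test with Benjamini-Hochberg adjustment called 0 of the 8 members and 0% of the 16729 genes higher, at an adjusted p under 0.05. Before adjustment, p was under 0.05 for 296 genes with a positive and 369 with a negative log2 fold change. DESeq2 without the number called 4 members, Acat2, Hmgcs1, Mvd and Idi1, beside 0.12% of all genes higher. With the replicate block, edgeR called 6 members, all but Fdps and Ggps1, beside 3.35% of all genes called higher and 5.09% called lower. Since the members were chosen on this contrast, nothing is read from their calls.

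Within each pair the order of the members was partly stable. Ggps1 had the smallest difference of the 8 in all 3 pairs, while Idi1 had the largest in pairs 1 and 3 and the second largest in pair 2. Taking neighbours in order of the mean difference, Idi1 exceeded Hmgcs1 by 0.25 ± 0.12 on the log2 scale (SD of 3 pairs), Acat2 exceeded Mvk by 0.19 ± 0.08 and Pmvk exceeded Ggps1 by 0.53 ± 0.27, each positive in 3 of 3 pairs. Hmgcs1 and Mvd, Mvd and Fdps, Fdps and Acat2, and Mvk and Pmvk differed by less than the spread between pairs. Because neighbours were sorted by the mean difference, a positive mean gap between them follows from the sorting. These are also the differences on which the genes were chosen, and the order was not tested. Among the last enzymes, Idi1 exceeded Ggps1 by 1.27 ± 0.09, and Fdps exceeded Ggps1 by 0.93 ± 0.37, with the low counts and counting limit of Fdps given above.

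**Figure D2:**
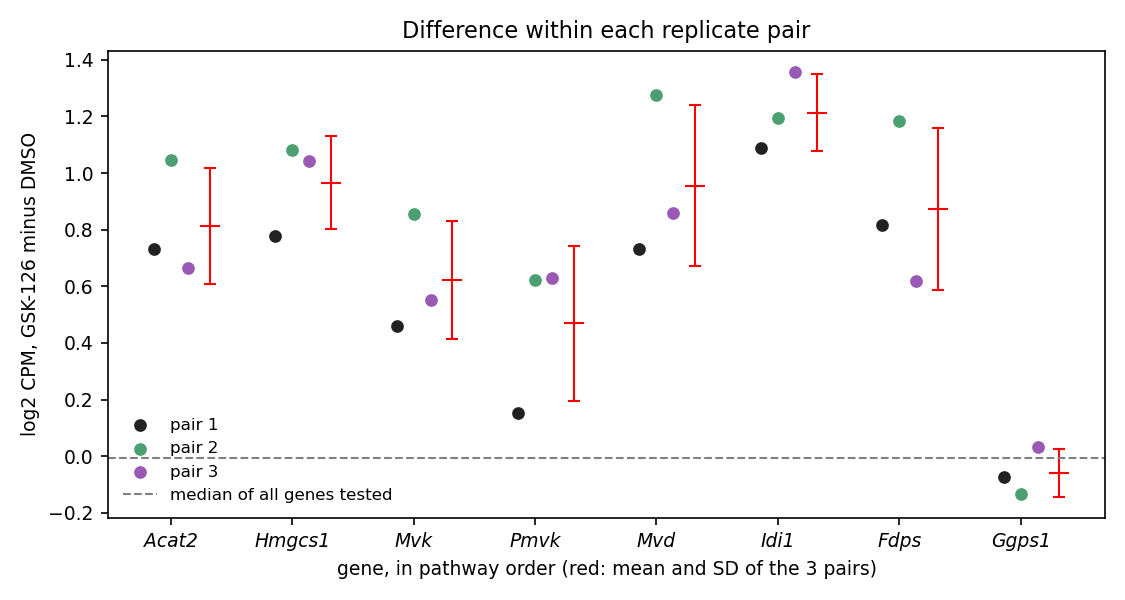
Difference in log2 CPM between GSK-126 and DMSO libraries of the same replicate number (vertical axis) for the 8 genes in pathway order (horizontal axis); points are the 3 pairs, red bars the mean and SD, and the dashed line the median log2 fold change of all genes tested. The points of 7 genes lie above 0, with Idi1 highest on average at 1.21, and those of Ggps1 lie between -0.13 and 0.03.

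Apart from the share of Hmgcs1 in the summed CPM, levels between genes were compared per length of exon. In DMSO, Hmgcs1 stood at 93.7 ± 5.44 CPM per kb of annotated exon (SD, n = 3), a level above that of 97.8% of the genes tested. Acat2 followed at 24.3 ± 0.930, Mvd at 16.9 ± 0.739, Pmvk at 13.7 ± 2.33, Mvk at 13.2 ± 1.29, Ggps1 at 10.1 ± 1.44 and Idi1 at 9.44 ± 1.28 CPM per kb. Pmvk and Mvk, and Ggps1 and Idi1, did not differ beyond their spread, and Mvd and Mvk changed places when the length of the principal transcript was used instead. Fdps was lowest at 0.365 ± 0.0412 CPM per kb, above 3.15% of the genes tested, with the counting limit given above. In GSK-126 Idi1 stood at 21.8 ± 2.09 CPM per kb, above Ggps1 at 9.65 ± 1.07.

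**Figure D3:**
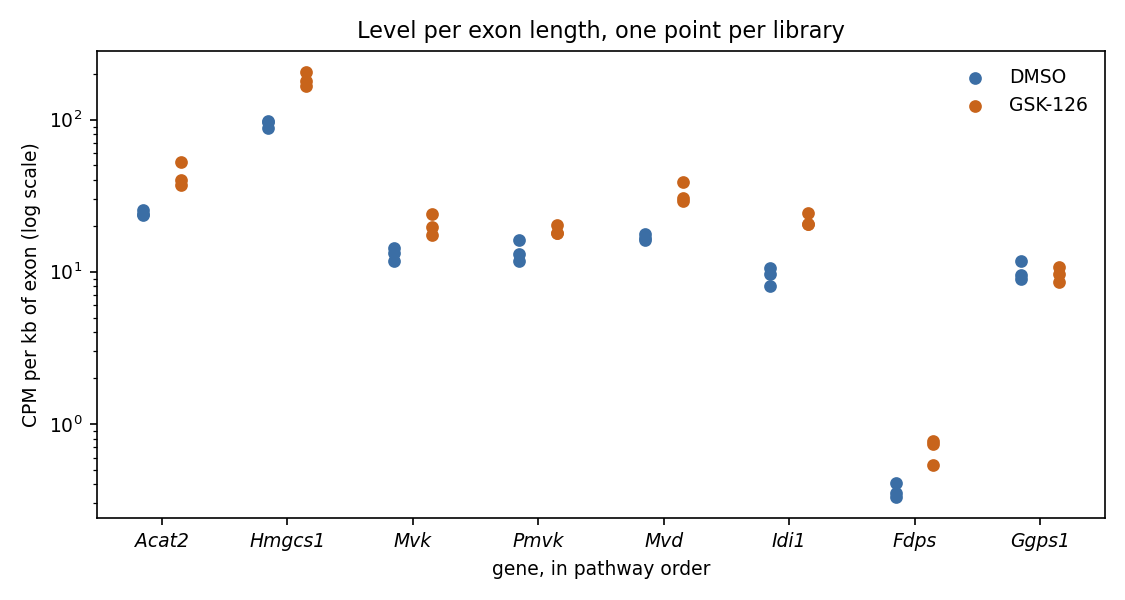
Level of each gene in CPM per kb of annotated exon (vertical axis, log scale) in the 3 DMSO and 3 GSK-126 libraries (points) for the genes in pathway order (horizontal axis). Hmgcs1 lies highest in both groups, Fdps lowest, and Idi1 and Ggps1 overlap in DMSO but not in GSK-126.

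The difference between cultures of different replicate number, fitted together with the group, is not the contrast on which the genes were chosen. It is not independent of that choice. Choosing genes on a visible group difference in these libraries can favour a small spread between replicates, so no conclusion is drawn from the values below. The edgeR quasi-likelihood F test with Benjamini-Hochberg adjustment called 31.4% of all genes tested for the replicate number and 0 of the 8 members, of which 2 had an unadjusted p under 0.05. DESeq2 also called 0 of the 8. Adjusted p ranged from 0.0804 for Acat2 to 0.862 for Fdps in edgeR. Acat2 was called when DMSO replicate 2 or DMSO replicate 3 was left out. In the DMSO libraries the range of log2 CPM over the 3 replicates had a median of 0.30 over the members and 0.49 over all genes tested, with Acat2 narrowest at 0.11 and Pmvk widest at 0.47. A p that misses the threshold does not show that the members were the same in all preparations. All 8 astroglial markers and 7 of 8 granule neuron markers were called for the replicate number.

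The marker levels beside the members were as follows. The summed astroglial markers overlapped between the groups and were highest in replicate 1 and lowest in replicate 2 of both, while 4 of the 8 had a higher mean in GSK-126. The summed granule progenitor and cell cycle markers also overlapped (218 to 297 and 203 to 337 CPM), and the summed GABAergic and Purkinje markers did not (208 to 243 CPM in DMSO, 162 to 197 CPM in GSK-126), and 5 of these 7 had a lower mean in GSK-126. The oligodendrocyte lineage markers (453 to 787 and 525 to 800 CPM) and the microglial markers (149 to 320 and 205 to 373 CPM) overlapped between DMSO and GSK-126, and 6 of 9 and 5 of 6 had a higher mean in GSK-126. The summed vascular and mesenchymal markers were higher in GSK-126 in 3 of 3 pairs, with all 8 higher in the mean, and the summed granule neuron markers were lower in 3 of 3 pairs, with 7 of 8 lower in the mean. With the replicate block, edgeR called 4 granule neuron markers lower and 1 higher, 3 vascular and mesenchymal markers higher, 3 GABAergic and Purkinje markers lower and 1 marker each of astroglia, the oligodendrocyte lineage and microglia higher. Over all genes tested it called 3.35% higher and 5.09% lower. Atoh1 and Cldn5, which mark granule progenitors and endothelium, were under 1 CPM in every library. The part of these differences in the level of the members was not tested. In bulk cultures, fewer cells of a type and less RNA per cell cannot be told apart.

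Reads of some members could be shared with other genes, and the strand setting of the counting is not stated. Acat2 shares 25.4% of the 150-base windows of its principal transcript with Acat3, its near-identical neighbour, and Idi1 shares 18.6% with Gm13502. Acat3 measured 42.8, 44.0 and 35.7 CPM in DMSO and 42.4, 45.1 and 50.8 CPM in GSK-126, with overlapping groups and a log2 fold change of 0.17 ± 0.14 (SE), and was not called (adjusted p = 0.420 in edgeR with the replicate block). Gm13502 held 1 to 7 counts per library.

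Genes that overlap a member on the opposite strand moved in different ways. Gm48342, annotated as antisense, shares 557 exon bases with Hmgcs1, 16.1% of the principal transcript. It measured 152, 152 and 132 CPM in DMSO and 261, 330.3 and 291 CPM in GSK-126, and rose with the replicate block by 1.01 on the log2 scale (adjusted p = 1.53e-07, edgeR). Gm48574, which shares 323 bases with Idi1, held 3 to 28 counts and rose by 1.98 (adjusted p = 0.0364, edgeR with the block). This call was lost without pair 2 or pair 3 (adjusted p = 0.196 and 0.154). Without a stated strand, the reads of Gm48342 and Gm48574 and those of Hmgcs1 and Idi1 cannot be told apart. The p-values of Gm48342 and Gm48574 may therefore rest on reads of members that were selected on this contrast. No separate rise of these 2 genes is read from them. Mmab, which encodes the adenosyltransferase of vitamin B12 metabolism and starts 209 bases from Mvk on the other strand, measured 28.4, 19.8 and 25.0 CPM in DMSO and 34.2, 33.7 and 29.9 CPM in GSK-126, and was not called (log2 fold change 0.43, adjusted p = 0.0525, edgeR with the block). Arid4b, which encodes a chromatin-associated protein and shares 257 exon bases with Ggps1, measured 90.1, 113 and 99.1 CPM in DMSO and 76.7, 79.9 and 87.5 CPM in GSK-126. It fell by 0.31 on the log2 scale with the block (adjusted p = 0.0338, edgeR), a call that was lost in DESeq2 with the block (adjusted p = 0.0924) and without pair 1 or pair 2 (adjusted p = 0.0940 and 0.234, edgeR).

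The genes that follow the arm and branch from it were read from fixed lists, and here the test applies, with the reservation that the lists were written with earlier results known. In the sterol steps from squalene to cholesterol all 13 genes had a positive log2 fold change, with a median of 0.63, and 11 rose with the replicate block in edgeR. In 11 of the 13 the groups did not overlap, with GSK-126 higher. Over all genes tested, 3.35% were called higher with the block and 4.72% had groups separated in that direction. Fdft1, squalene synthase and the first enzyme past farnesyl diphosphate, measured 112, 92.5 and 89.7 CPM in DMSO and 205, 237.8 and 183 CPM in GSK-126, and rose by 1.09 (adjusted p = 1.53e-07). Nsdhl, which removes sterol methyl groups together with Msmo1, rose by 0.96 (adjusted p = 3.88e-06). Lbr, a sterol reductase of the inner nuclear membrane, and Ebp, a sterol isomerase, had log2 fold changes of 0.17 and 0.03 and were not called (adjusted p = 0.356 and 0.897). At the branch point the gene that leads to sterols, Fdft1, and the gene that leads to geranylgeranyl groups, Ggps1, thus stood at 2.13-fold and 0.958-fold of their DMSO means.

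Of the 13 genes of SREBP control, 7 rose with the block and none fell, beside 3.35% of all genes called higher and 5.09% called lower. In 4 of the 13 the groups did not overlap, with GSK-126 higher, beside 4.72% of all genes. Stard4, a cytosolic sterol carrier, rose by 0.91 (adjusted p = 4.97e-07) and Insig1, the sterol-regulated retention protein of the SREBP complex, rose by 0.88 (adjusted p = 2.85e-07). Srebf2, which encodes the SREBP most closely tied to cholesterol synthesis, rose by 0.53 (adjusted p = 3.83e-05) and Srebf1 by 0.32 (adjusted p = 0.0154). Npc2, a lysosomal cholesterol carrier, and Mylip, a ubiquitin ligase induced by sterols, rose by 0.52 (adjusted p = 2.08e-04) and 0.64 (adjusted p = 0.00568). The 2 groups overlapped for Srebf1, Npc2 and Mylip, and without pair 1 Srebf1 and Mylip were not called (adjusted p = 0.232 and 0.0947). The proteases Mbtps1 and Mbtps2, which cut SREBP, had log2 fold changes of -0.12 and -0.17 and were not called (adjusted p = 0.420 and 0.462).

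Upstream of the arm, 3 of the 9 tested genes of acetyl-CoA supply and ketone metabolism rose with the block and 1 fell. Over all genes the shares were 3.35% and 5.09%. In 2 of the 9 the groups did not overlap, with GSK-126 higher, beside 4.72% of all genes tested. Aacs, which makes acetoacetyl-CoA from ketone bodies, rose by 0.48 (adjusted p = 0.00160), Acly, which makes acetyl-CoA from citrate, by 0.34 (adjusted p = 0.00827) and Slc25a1, the citrate carrier, by 0.45 (adjusted p = 0.0217). Hmgcll1, which cleaves HMG-CoA, fell by 0.59 (adjusted p = 0.0259), and the groups overlapped for it and for Slc25a1. Hmgcll1 was not called in DESeq2 with the block (adjusted p = 0.0944) or without pair 2 or pair 3 (adjusted p = 0.134 and 0.201, edgeR). Without pair 2, Acly and Slc25a1 were not called either (adjusted p = 0.0717 and 0.216). Oxct1, which activates ketone bodies for oxidation in mitochondria, had a log2 fold change of -0.11 and was not called (adjusted p = 0.400). Acss2, of the same list, had means of 43.4 CPM in DMSO and 44.35 CPM in GSK-126. It was not called (log2 fold change 0.03, adjusted p = 0.917, edgeR with the block). The list as a whole had a median of 0.02 in the fit without the block.

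The branches that use isoprenoids for other products held few called genes. Of 11 ubiquinone genes 0 rose and 1 fell with the block in edgeR, with 0 higher before adjustment at p under 0.05, and DESeq2 without the block called 0 higher. The 1 was Coq8a, an atypical kinase of ubiquinone synthesis, which fell by 0.49 (adjusted p = 0.0187), a call lost in DESeq2 with the block (adjusted p = 0.0678) and without pair 1 (adjusted p = 0.181, edgeR). Coq6, a ring hydroxylase, and Pdss2, a subunit of the synthase of the polyprenyl tail, had the highest log2 fold changes of the list in the fit without the block, 0.13 and 0.12, and Pdss1, the other subunit, a low one of -0.09, none of them called. Of 10 dolichol genes 0 were called, with 3 higher before adjustment (p under 0.05, edgeR with the block), and DESeq2 without the block called 0. Over the 16729 genes tested, 1578 were higher and 2017 lower before adjustment in that edgeR fit. In 3 of the 10 dolichol genes the groups did not overlap, with GSK-126 higher, beside 4.72% of all genes tested. Their median log2 fold change was 0.18, and their extremes were Srd5a3, the polyprenol reductase, at 0.41 and Alg5, which glucosylates dolichol phosphate, at 0.29, and Dolpp1, a dolichyl diphosphatase, at -0.12 and Dpm1, of dolichol phosphate mannose synthesis, at -0.34.

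Of 12 protein prenylation genes 0 were called, where p before adjustment was under 0.05 for 1 higher and 2 lower genes in the same fit, and DESeq2 without the block called 0. Rce1, the protease that trims prenylated proteins, stood at 0.35 and Chml, a Rab escort protein, at 0.12, while Ptar1 and the other escort protein, Chm, stood at -0.22 and -0.21. None of the 3 tested genes of other isoprenoid users was called with the block, and among them Cox10 of haem A synthesis and Trit1 of tRNA modification had log2 fold changes of -0.03 and -0.34. No difference between lists was tested.

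**Figure D4:**
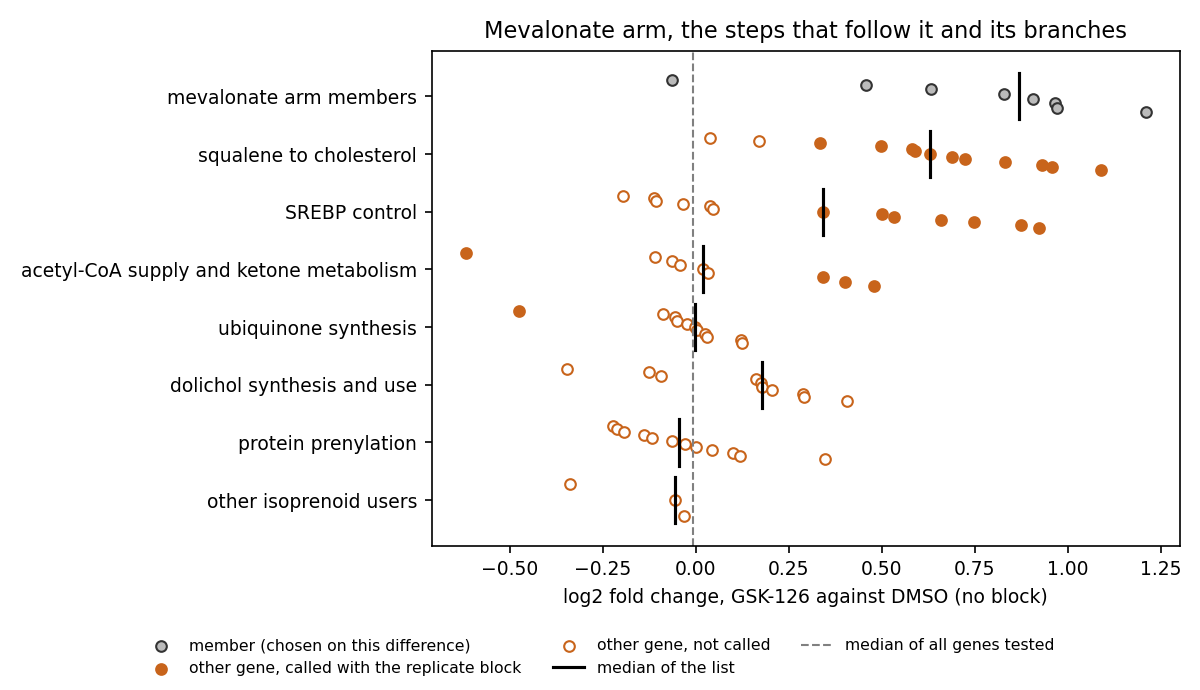
Log2 fold change between GSK-126 and DMSO in the fit without the replicate block (horizontal axis) for the tested genes of each pathway list (rows); filled orange points were called at an adjusted p under 0.05 with the block, open points were not, grey points are the 8 members, black bars are list medians and the dashed line is the median of all genes. The list medians are 0.87 for the members, 0.63 for the sterol steps and between -0.06 and 0.34 for the others.

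The 10 genes outside the 8 whose centred log2 CPM over the 6 libraries lay nearest to the mean profile of the members included Hsd17b7, Scg2, Rdh11, P2rx6, 9430037G07Rik, Acsl3, Wnk4, Dhcr7 and Tmeff1. Likeness was the root mean square distance on the log2 scale, which was 0.096 for Hsd17b7 and 0.119 for Tmeff1, against a median of 0.465 over the 16721 other genes tested. Among the members themselves the distance from their own mean was smallest for Acat2, at 0.0858, and largest for Ggps1, at 0.419. Hsd17b7 and Dhcr7, enzymes of the sterol steps past squalene, were the 2 of the 10 that belong to the fixed lists. Hsd17b7 measured 33.1, 32.3 and 32.2 CPM in DMSO and 46.4, 51.8 and 47.7 CPM in GSK-126, and Scg2, a secretory granule protein of neurons, measured 79.1, 80.2 and 78.3 CPM in DMSO and 119.2, 124 and 119.5 CPM in GSK-126. Since the profile contains the difference between the groups, that these genes were higher in GSK-126 follows from how they were picked. When likeness was taken over the 3 within-pair differences alone, 0 of these 10 genes were among the nearest 10, which began with Tbx2.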

How the data were processed

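RNA from 3 DMSO and 3 GSK-126 cultures was measured by polyadenylated RNA sequencing. The deposited values are raw read counts per gene symbol. The authors trimmed reads with Trimmomatic 0.38, aligned them to mm10 with STAR 2.7.2b and counted exons with HTSeq. The strand setting is not given in the sources used here. The 5 closing lines of each table name no gene, held 58.7% to 60.7% of the reads listed, and were left out.

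Counts were fitted in edgeR 4.0.16 (TMM, filterByExpr, quasi-likelihood F test, Benjamini-Hochberg over 16729 genes, call at an adjusted p under 0.05), without and with the replicate number as a block. The numbers come from the labels. Deviations from the group means correlated across genes at 0.544, 0.607 and 0.468 for libraries of the same number and at 0.001 or less for the others, so they were treated as paired. CPM are over TMM-scaled library sizes, and 0.5 counts were added before within-pair log2 differences. The SE of a fold change is its absolute value divided by the square root of its F statistic. DESeq2 1.42.0 and other scalings, filters and left-out libraries were alternatives. The scripts were tested on simulated data.

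The members and the gene lists were chosen with earlier results of these data known. Named genes are the members, their overlapping or head-to-head neighbours (starts within 1000 bases), the 2 highest and 2 lowest tested genes of each list, and the 10 nearest profiles; some of these are not reported here. Genes of the SREBP and acetyl-CoA lists beyond these, Acat3, Gm13502 and Tbx2 were chosen after their values were seen. P-values without the block are set against the spread between cultures of the same group. Those with the block, and those for the replicate number, are set against the spread left once group and number are fitted. Exon lengths and loci are from GENCODE M21 and promoters from RefSeq. Python 3.11.15 was used for tables and figures.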

Additional observations from a re-analysis of the deposited data

How the results depend on the processing

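The median log2 fold change of the 8 members stayed positive under all 16 alternatives, from 0.719 to 0.956. Each member except Ggps1 also kept its sign and moved by less than the SD between its pairs. Pmvk ran from 0.362 to 0.642 and Fdps from 0.738 to 1.044. Ggps1 turned to 0.062 without DMSO replicate 2 and to 0.034 without GSK-126 replicate 1, and stayed negative under the other 14. With single libraries left out Ggps1 ran from -0.125 to 0.062. Calls moved more than fold changes. Without a block edgeR called 0 genes higher and 0 lower. With the replicate block, which pairs libraries of the same number, it called 561 higher and 851 lower, and with each pair left out 337 to 558 higher and 496 to 719 lower. DESeq2 called 20 higher and 1 lower, DESeq2 with the block 369 and 618, and edgeR with no filter on low counts 9 and 1. Outside the members, the lists held 0 genes called higher without the block, 21 with the replicate block (19 to 20 with a pair left out), 6 in DESeq2, 21 in DESeq2 with the block and 4 with no filter. Genes called lower in the lists were 0 without the block and 2 with it, 1 with any pair left out, and 0 in DESeq2 with or without the block. For the replicate number, 0 members were called in the main design and 0 to 1 with a library left out, the 1 being Acat2. The cause of these changes was not tested. Counts of 15 to 41 per library limit the precision for Fdps.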
